A study of Mus musculus with 16 samples.

Results

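The MAP kinase cascade genes are the rows of the expression table whose symbol starts with MAP4K, MAP3K, MAP2K, MAPK or MAPKAPK followed by a digit, leaving out MAP3K1, the gene that was targeted in the mice. The symbol alone chose them, and 43 of the 18132 rows matched. Of these, 36 are kinases and 7 are binding proteins that carry a kinase's name: MAP3K7IP1, MAP3K7IP2, MAP3K7IP3, MAPK1IP1, MAPK8IP1, MAPK8IP2 and MAPK8IP3. By tier the kinases are 3 MAP4K, 11 MAP3K, 7 MAP2K, 13 MAPK and 2 MAPKAPK genes.

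A MAP kinase cascade passes a signal along a chain of protein kinases. A MAP4K, or a small GTPase, switches on a MAP3K, the MAP3K phosphorylates a MAP2K, and the MAP2K phosphorylates a MAP kinase of the ERK, JNK or p38 family, which then acts on transcription factors and on kinases such as the MAPKAPK enzymes. Much of this control is exerted by phosphorylation of protein that is already present, so the transcript of a kinase gives how much message is made and not how active the kinase is. MEKK1, the product of MAP3K1, is a MAP3K that feeds mainly the JNK and ERK branches, and fibroblasts use these cascades to respond to growth factors and cytokines.

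Primary fibroblasts were grown from the inguinal mammary glands of female 129S6 mice aged 8 to 10 weeks, either MEKK1+/+ or MEKK1-/-. They were kept in DMEM with serum (untreated) or exposed for 8 h to conditioned medium (CM), the same medium after MDA-MB-231 cells, a human breast cancer line, had grown in it. Each of the 4 combinations was measured on 4 Illumina Mouse 8 arrays, 16 in all, numbered here as replicates 1 to 4. The study describes fewer mice than arrays and the mouse behind each culture is not named, so each spread and p-value below measures differences between cultures, some of which may share an animal. How the null allele was made is not given in the sources used here.

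Intensities were put on the log2 scale and quantile normalized, so that all arrays share 1 distribution of values. A log2 difference of 1 is a doubling. Differences were tested with limma over all 18132 rows with Benjamini-Hochberg adjustment, and a gene is said to have risen or fallen only where its adjusted p was under 0.05. The number of arrays limits the precision, and with 4 arrays in each group an exact permutation p (2-sided) cannot go below 0.0286. Without this step, the median row differed by -0.28 between CM and untreated MEKK1+/+ cells and by 0.28 between the genotypes under CM (MEKK1-/- minus MEKK1+/+). Directions in MEKK1+/+ cells and between genotypes are therefore relative to the rest of the transcriptome.

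The MAP3K1 signal did not fall with the MEKK1-/- label. In untreated cells its normalized log2 intensity was 7.51 to 7.95 on MEKK1+/+ arrays and 8.06 to 8.41 on arrays labelled MEKK1-/-, a difference of 0.53 (limma adjusted p = 0.466). Genotype is taken from the labels throughout, and the part of the transcript that the probe reads was not analysed here. Fibroblast markers were above background on every array for 10 of 11 genes. Macrophage markers were above it for 8 of 15, with 4 (ITGAM, PTPRC, FCER1G and MSR1) on no array. The summed intensity of the 15 ran from 27129 to 80727 on MEKK1+/+ arrays and from 13190 to 67480 on MEKK1-/- arrays, and replicate 2 was the lowest of its group in both MEKK1+/+ groups and the highest in both MEKK1-/- groups. Epithelial markers summed to 11268 and 10156 on replicate 1 of the untreated and CM-treated MEKK1-/- cells and to at most 1712 elsewhere, with 1 of 8 (KRT19) above background on every array. None of the 5 fat, 7 lymphocyte and 6 endothelial markers passed background on every array. The fat markers passed on no array, while the endothelial TEK and EMCN passed on 14 and 13 and the lymphocyte CD3E on 10. EMCN was highest, at 8.94 and 9.14, on replicate 1 of the untreated and CM-treated MEKK1-/- cells.

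Most of the cascade was transcribed in these fibroblasts, and every tier held members above background. Background was set on each array by the 99th percentile of 1075 olfactory receptor rows, genes that fibroblasts are not known to use, and lay between 7.20 and 7.34 on the normalized log2 scale. Of the 43 members 29 (67.4%) were above it on all 16 arrays, beside 6923 (38.2%) of all rows. The 36 kinases gave 24 of these. A further 3 members passed on some arrays and 11 on none. Being below the level says that a probe gave no signal distinguishable from background, not that the transcript was absent.

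Among the MAP4K genes, MAP4K2 (germinal centre kinase) and MAP4K4 (a kinase upstream of JNK) were above background on every array, and MAP4K5 on none. The MAP3K tier had 6 of 11 on every array. These were MAP3K3 (MEKK3), MAP3K6 (ASK2), MAP3K7 (TAK1, the kinase used by interleukin-1 and TGF-beta receptors), MAP3K11 (MLK3), MAP3K12 (DLK) and MAP3K14 (NIK, the kinase of the non-canonical NF-kB pathway). MAP3K8 (TPL2, which activates ERK downstream of Toll-like receptors) passed on 14 arrays and MAP3K4 (MEKK4) on 2. MAP3K2 (MEKK2), MAP3K9 and MAP3K13 passed on 0.

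In the MAP2K tier 6 of 7 were above background on every array. They cover all branches: MAP2K1 and MAP2K2 (the ERK kinases MEK1 and MEK2), MAP2K3 (a p38 kinase), MAP2K4 and MAP2K7 (the JNK kinases) and MAP2K5 (the ERK5 kinase). MAP2K6, the other p38 kinase, was below background on all 16 arrays, between 0.14 and 0.39 under the level on the log2 scale. MAPK7, which encodes ERK5, the substrate of the MAP2K5 product, was also below it on every array.

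Of the 13 MAPK genes 8 passed on every array, among them MAPK3 (ERK1), MAPK6 (ERK3), MAPK8 and MAPK9 (JNK1 and JNK2), and MAPK14, MAPK11 and MAPK12 (p38 alpha, beta and gamma). MAPK10, the JNK3 gene known mainly from neurons, passed on none, nor did MAPK4, MAPK7 and MAPK15. MAPK13 (p38 delta) passed on 2 arrays, replicate 1 of the untreated and of the CM-treated MEKK1-/- cells. These are the arrays with epithelial signal, and the part of other cells in these values was not tested. Both MAPKAPK genes, MAPKAPK2 and MAPKAPK3, which are p38 substrates, were above background on all arrays. Among the binding proteins, the TAK1 partners MAP3K7IP1, MAP3K7IP2 and MAP3K7IP3 (now Tab1, Tab2 and Tab3), the JNK scaffold MAPK8IP1 (JIP1) and MAPK1IP1 passed on every array, and the scaffolds MAPK8IP2 and MAPK8IP3 on none.

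**Figure D1:**
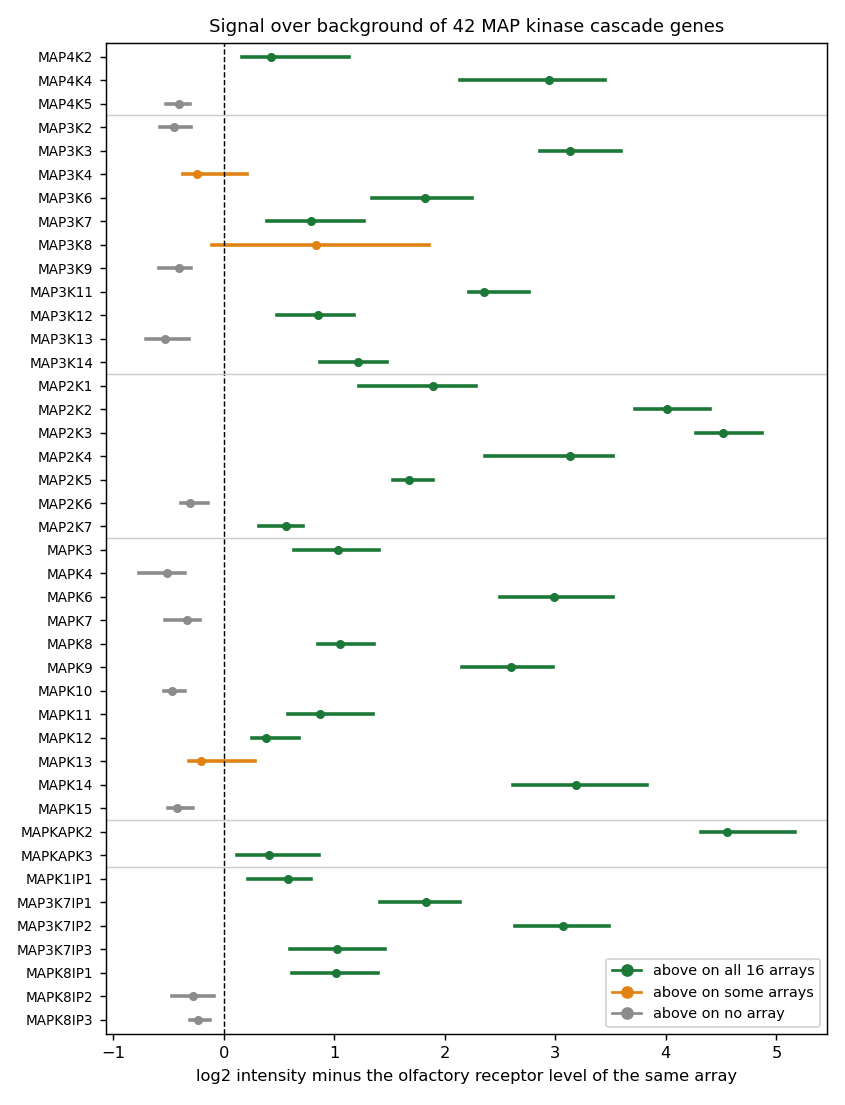
Signal over background of 42 of the 43 genes, grouped by tier. The x axis is a gene's normalized log2 intensity minus the olfactory receptor level of the same array, the point is the median and the bar the range over 16 arrays. The 28 green genes lie above 0 on every array, the 3 orange genes cross it and the 11 grey genes lie below it. Distances of different genes also reflect their probes and are not amounts.

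The question for each genotype was whether the message of any cascade member moves when fibroblasts receive tumour-conditioned medium. In MEKK1+/+ cells 2 of 43 members rose with CM and 0 fell. They were MAP4K2, at 1.47-fold, and MAPK8IP1, at 1.30-fold. Over all rows 5.01% passed the threshold, 2.27% higher and 2.75% lower, and among rows above background on every array 10.6% did, so the share of the members was no larger than that of other genes. At an unadjusted p under 0.05 there were 10 members (9 higher, 1 lower) beside 16.8% of rows. The z-test named in the study's methods called 5. The share of all rows called by that test is not given here, so its count is not set against these shares.

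In MEKK1-/- cells 5 of 43 members passed. MAP4K4 (1.55-fold), MAP4K2 (1.40-fold), MAPK3 (1.38-fold) and MAPK11 (1.32-fold) rose, and MAP3K6 fell by 0.47 on the log2 scale. The background was 4.69% of all rows, 2.18% higher and 2.51% lower, and 9.98% of rows above background on every array. An unadjusted p under 0.05 was reached by 11 members (7 higher, 4 lower) beside 16.2% of rows, and the z-test called 8. At 5 genes, nothing particular to the cascade is read from a share above that of all rows. Same-numbered untreated and CM arrays deviated together in this genotype, although replicates 3 and 4 each correlated more with the other number, and with the replicate number as a block within genotype 7 members passed, the additional ones being MAPK12 (adjusted p = 0.0487) and MAPK8IP1 (adjusted p = 0.0359). As deposited, and without MEKK1-/- untreated replicate 4, 0 passed, and without replicate 1 of both MEKK1-/- groups, the arrays with epithelial signal, 2 did (MAP4K2 and MAPK3). The shares of all rows under the z-test, the block and these settings are not given here. None of these counts is read as particular to the cascade.

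MAP4K2, a kinase at the top of the JNK cascade, rose in both genotypes. Its normalized log2 intensity was 7.64, 7.39, 7.48 and 7.52 on untreated MEKK1+/+ arrays and 7.98, 8.39, 7.81 and 8.05 with CM. On MEKK1-/- arrays it was 7.57, 7.57, 7.58 and 7.54 untreated and 7.72, 8.22, 8.04 and 8.22 with CM. Every CM array was above every untreated array of its genotype. The log2 difference was 0.55 in MEKK1+/+ cells (SE 0.12, limma adjusted p = 0.0138) and 0.49 in MEKK1-/- cells (SE 0.12, adjusted p = 0.028). The difference between these responses was -0.06 (95% interval -0.42 to 0.29; 0.22 as deposited). Its direction held under every scaling tried, at 0.24 in MEKK1+/+ cells as deposited, where it no longer passed. Without replicate 2 of every group, the arrays with the opposite macrophage signal, it was 0.40 (adjusted p = 0.0951) in MEKK1+/+ cells and 0.44 (adjusted p = 0.0626) in MEKK1-/- cells.

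MAP4K4 had values of 10.13, 9.76, 9.87 and 10.23 on untreated MEKK1+/+ arrays and 10.57, 9.98, 10.65 and 10.26 with CM. On MEKK1-/- arrays it had 9.43, 10.09, 9.96 and 9.90 untreated and 10.64, 10.34, 10.43 and 10.51 with CM. The groups were separate in MEKK1-/- cells and overlapped in MEKK1+/+ cells. The log2 difference was 0.63 in MEKK1-/- cells (SE 0.16, adjusted p = 0.0358). It was 0.37 in MEKK1+/+ cells (adjusted p = 0.255), and -0.04 there as deposited. The responses differed by 0.27 (95% interval -0.22 to 0.75), so a difference between genotypes was not detected. The call in MEKK1-/- cells was lost under median scaling (0.54, adjusted p = 0.279) and without replicate 1 of both groups (0.44, adjusted p = 0.166).

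MAP3K6, which forms a stress-responsive complex with ASK1, was the 1 member that fell. Untreated MEKK1-/- arrays lay at 9.33, 9.32, 9.25 and 9.29, and those with CM at 8.83, 9.04, 8.64 and 8.81. On MEKK1+/+ arrays the values were 9.17, 9.47, 9.07 and 9.07 untreated and 8.74, 9.08, 8.85 and 8.58 with CM. All 4 treated MEKK1-/- arrays were below the untreated ones, whereas in MEKK1+/+ cells replicate 2 with CM was slightly above the lowest untreated arrays. The log2 difference was -0.47 in MEKK1-/- cells (SE 0.11, adjusted p = 0.0243) and -0.38 in MEKK1+/+ cells (SE 0.11, adjusted p = 0.0602). It was negative in both genotypes under every scaling tried. In MEKK1+/+ cells it also passed with arrays scaled to the same median (-0.50) and as deposited (-0.79, where the median row differed by -0.28). In MEKK1-/- cells it missed the threshold as deposited and under median scaling (-0.50 with median scaling, adjusted p = 0.0571).

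MAP3K11 and MAP3K12, mixed-lineage kinases that feed JNK, did not pass in either genotype. MAP3K11 had 9.54, 9.49, 9.46 and 9.59 untreated and 9.80, 10.02, 9.80 and 9.63 with CM in MEKK1+/+ cells, groups that did not overlap. Its log2 difference was 0.29 (adjusted p = 0.0777) and turned to -0.11 as deposited. MAP3K12 differed by 0.28 in MEKK1+/+ cells (adjusted p = 0.09; -0.07 as deposited) and by 0.16 in MEKK1-/- cells (adjusted p = 0.428), where its groups did not overlap. Of the paralogs nearest to MEKK1, MAP3K3 differed with CM by 0.22 in MEKK1+/+ cells (95% interval -0.01 to 0.44; -0.21 as deposited) and by 0.08 in MEKK1-/- cells (-0.15 to 0.31). MAP3K2 and MAP3K4 were at or near background, and their responses are not read.

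No MAP2K gene passed with CM in either genotype. MAP2K7, a JNK kinase, lay at 8.01, 7.80, 7.94 and 7.91 on untreated MEKK1-/- arrays and at 7.69, 7.72, 7.62 and 7.72 with CM. These groups did not overlap, and the log2 difference was -0.22 (SE 0.07, adjusted p = 0.0665). In MEKK1+/+ cells it was -0.08 (95% interval -0.22 to 0.06). The other JNK kinase, MAP2K4, had a response of -0.17 in MEKK1+/+ cells (95% interval -0.46 to 0.12) and -0.26 in MEKK1-/- cells (-0.55 to 0.03). For MAP2K1 the intervals were wide, from -0.41 to 0.52 and from -0.27 to 0.66, and for MAP2K2 they ran from -0.39 to 0.10 and from -0.33 to 0.16.

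Among the MAP kinases themselves, MAPK3 and MAPK11 rose in MEKK1-/- cells. MAPK3 (ERK1) measured 7.93, 8.22, 8.14 and 7.91 on untreated MEKK1-/- arrays and 8.39, 8.75, 8.42 and 8.49 with CM, 0.46 higher (SE 0.10, adjusted p = 0.015). In MEKK1+/+ cells it measured 8.01, 8.20, 8.21 and 8.32 untreated and 8.58, 8.26, 8.29 and 8.40 with CM, a difference of 0.20 (adjusted p = 0.341; -0.16 as deposited). The groups were separate in MEKK1-/- cells and overlapped in MEKK1+/+ cells. The responses differed by 0.26 (95% interval -0.04 to 0.57, unadjusted p = 0.0826 by limma).

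MAPK11 (p38 beta) measured 8.17, 8.03, 8.01 and 7.87 on untreated MEKK1-/- arrays and 8.46, 8.46, 8.33 and 8.44 with CM. In MEKK1+/+ cells it measured 7.82, 7.93, 7.91 and 8.01 untreated and 8.30, 8.60, 8.06 and 8.09 with CM. The treated arrays were above the untreated ones in both genotypes, by 0.40 (SE 0.10, adjusted p = 0.0335) in MEKK1-/- cells and by 0.35 (SE 0.10, adjusted p = 0.0617) in MEKK1+/+ cells, the latter 0.02 as deposited. MAPK12 (p38 gamma) differed by 0.23 in MEKK1-/- cells (adjusted p = 0.12) and 0.12 in MEKK1+/+ cells (adjusted p = 0.495; -0.20 as deposited). MAPK14 (p38 alpha) differed by -0.15 in MEKK1-/- cells (95% interval -0.45 to 0.15) and -0.06 in MEKK1+/+ cells (-0.36 to 0.24).

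The JNK genes gave no call. MAPK9 (JNK2) was at 9.45, 9.84, 9.63 and 9.60 on untreated MEKK1-/- arrays and at 9.94, 9.84, 10.01 and 9.95 with CM. Its groups met at 9.84 without overlapping, and the log2 difference was 0.31 (SE 0.09, adjusted p = 0.0556). In MEKK1+/+ cells it was 0.23 (adjusted p = 0.155; -0.18 as deposited). MAPK8 (JNK1) differed by -0.10 in MEKK1-/- cells (95% interval -0.26 to 0.07) and by -0.11 in MEKK1+/+ cells (-0.27 to 0.06). The p38 substrate MAPKAPK2, also named after its values were seen, differed by 0.19 in each genotype (adjusted p = 0.528 in MEKK1+/+ cells, -0.23 there as deposited, and adjusted p = 0.555 in MEKK1-/- cells).

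MAPK8IP1, the scaffold that holds JNK with its upstream kinases, rose in MEKK1+/+ cells. It measured 7.87, 8.15, 8.21 and 8.29 untreated and 8.52, 8.60, 8.30 and 8.61 with CM. On MEKK1-/- arrays it measured 8.11, 8.13, 7.92 and 7.89 untreated and 8.31, 8.56, 8.21 and 8.40 with CM. In both genotypes the treated and untreated groups did not overlap. The log2 difference was 0.37 in MEKK1+/+ cells (SE 0.10, adjusted p = 0.0485), 0.02 there as deposited, and 0.36 in MEKK1-/- cells (SE 0.10, adjusted p = 0.0628). The call in MEKK1+/+ cells lies at the threshold and was lost in 18 of 27 alternative limma settings. MAPK1IP1 differed by 0.17 in MEKK1+/+ cells without overlap (adjusted p = 0.287) and by -0.15 as deposited.

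**Figure D2:**
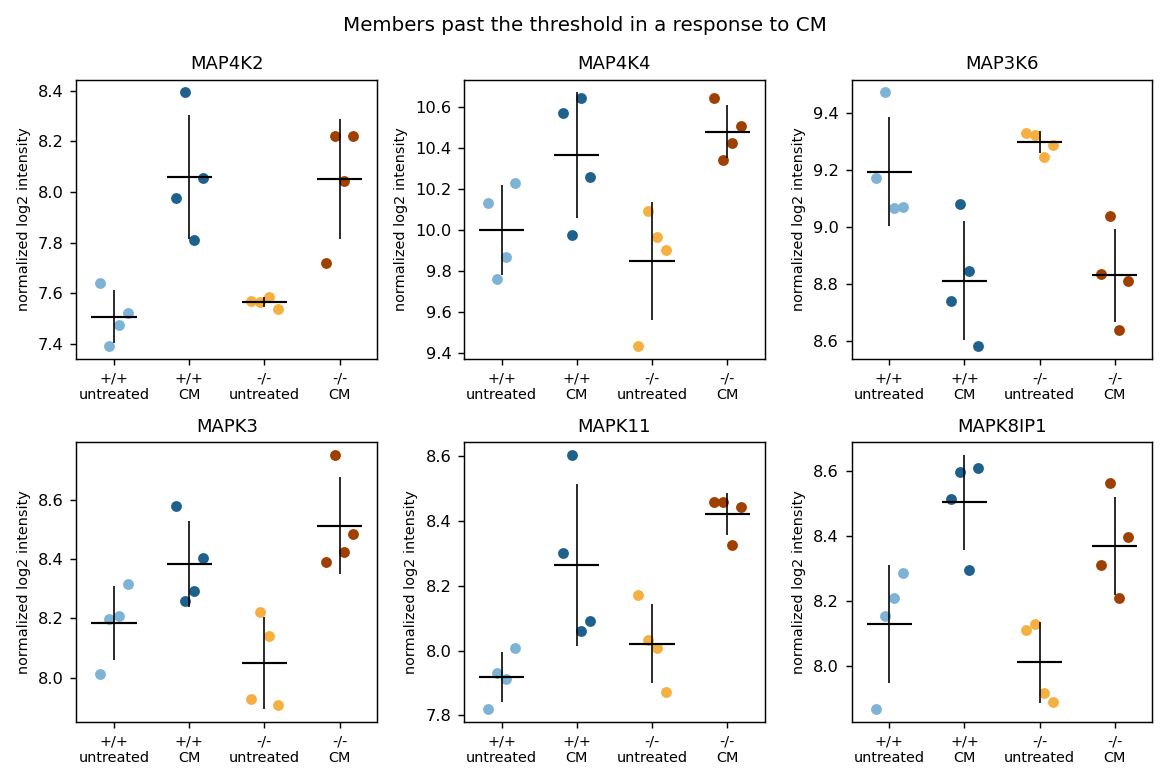
Normalized log2 intensity (y axis) of the 6 members past the threshold in a response to CM, for MEKK1+/+ and MEKK1-/- cells untreated and with CM. Points are the 4 arrays of a group, horizontal lines the mean and vertical lines 1 SD. The y axes do not start at 0 and differ between genes. MAP4K2 is higher with CM in both genotypes and MAP3K6 lower, with overlap of the MEKK1+/+ groups for MAP3K6.

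In all, the arrays of the groups compared did not overlap for 6 members in MEKK1+/+ cells, beside 9.70% of all rows, all with higher CM arrays. They did not overlap for 10 members in MEKK1-/- cells, beside 10.4% of rows, 8 higher and 2 lower. The median log2 difference of the 43 members was 0.05 in MEKK1+/+ and 0.03 in MEKK1-/- cells. In MEKK1+/+ cells 29 of 43 differences were above 0 and 27 were with median scaling, but only 3 were as deposited. In MEKK1-/- cells 23 were above 0 under every scaling. MEKK1+/+ and MEKK1-/- responses use different arrays.

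**Figure D3:**
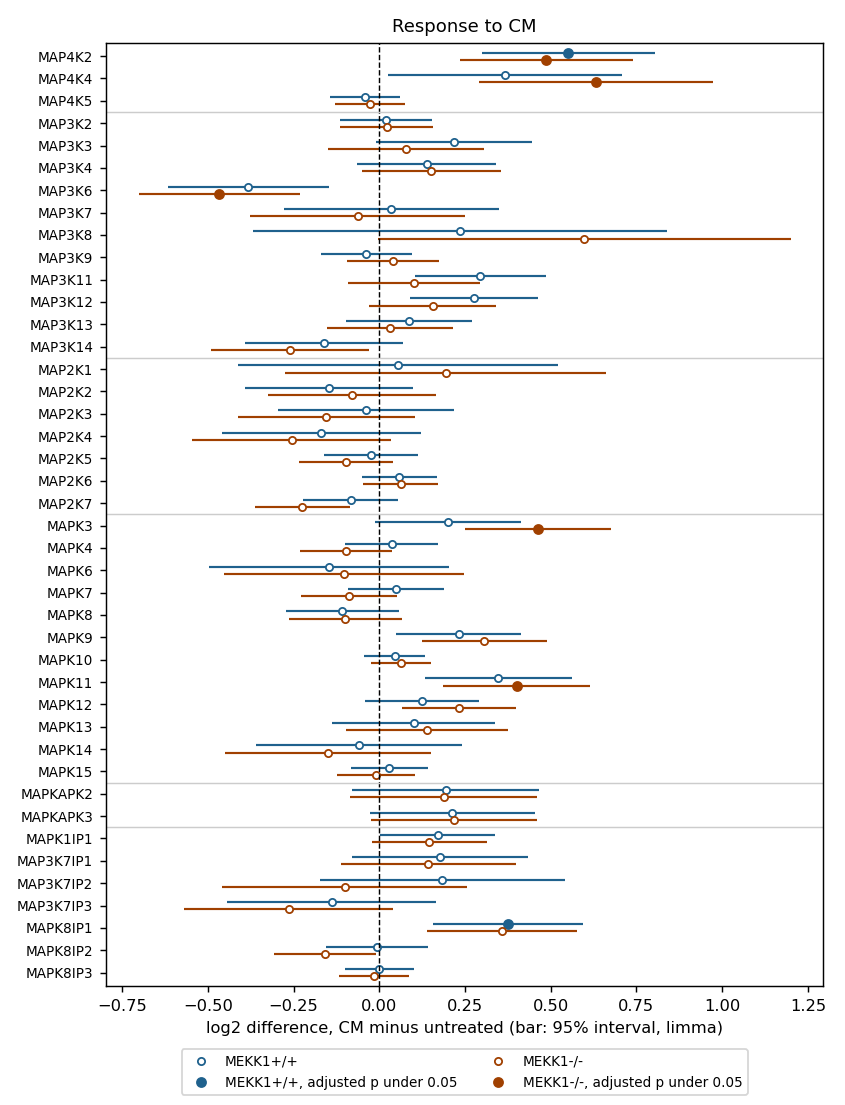
Log2 difference between CM and untreated arrays (x axis) of 42 members in MEKK1+/+ (blue) and MEKK1-/- (brown) cells, with 95% intervals from limma on quantile normalized values and filled points for an adjusted p under 0.05. The 2 filled blue points are MAP4K2 and MAPK8IP1, and the 5 filled brown points are MAP4K2, MAP4K4, MAP3K6, MAPK3 and MAPK11. Of the 43 MEKK1+/+ differences 29 are above 0 with quantile normalization, 27 with median scaling and 3 as deposited.

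The promoter sequences of the called genes are shown because MAP4K2 rose in both genotypes and MAP3K6 fell, and because AP-1, CRE and NF-kB elements are the usual end points of these cascades. They are the 250 bases before the start of the gene, from RefSeq on GRCm38.p6, for Map4k2 on the plus strand at chr19:6340910-6341159 and for Map3k6 on the plus strand at chr4:133240568-133240817. The capitals mark the match to the NF-kB consensus, and Map3k6 holds no match.
Map4k2: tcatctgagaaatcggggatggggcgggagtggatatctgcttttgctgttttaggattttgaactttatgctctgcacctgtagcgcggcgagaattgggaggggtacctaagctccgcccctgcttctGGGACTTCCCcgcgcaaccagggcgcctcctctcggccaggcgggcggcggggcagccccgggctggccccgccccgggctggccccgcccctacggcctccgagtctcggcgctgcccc
Map3k6: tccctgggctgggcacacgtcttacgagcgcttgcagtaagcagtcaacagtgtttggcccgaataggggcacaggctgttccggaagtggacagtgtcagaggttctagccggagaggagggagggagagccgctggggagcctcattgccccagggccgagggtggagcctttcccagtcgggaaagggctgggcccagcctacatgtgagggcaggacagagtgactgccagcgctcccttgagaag

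Windows were found for 33 of the 43 members, 45 windows in all, and 22 of these genes have a single start. Both strands were searched for the AP-1 motif TGANTCA, the CRE TGACGTCA and the NF-kB consensus, and matches of different motifs may overlap. AP-1 matched 2 member windows (4.44%, beside 6.75% of 32851 windows), CRE 1 (2.22%, beside 1.55%) and NF-kB 4 (8.89%, beside 7.25%). The NF-kB matches were in MAP3K7, MAP4K2 and MAPK7, and that of Map4k2 lies 120 bases before the start. Mapk11, the third called gene with a window, held none of the motifs. The median GC content was 62.8% in the member windows and 52.4% in all windows. A match is a description of letters and does not show that a factor binds.

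Whether MEKK1 loss changes the message of any paralog or of the kinases below it was compared next. Between genotypes no member passed in untreated cells or with CM. In untreated cells 0 of 43 passed by limma (0% of all rows), 1 had an unadjusted p under 0.05 (9.27% of rows), the z-test called 1 (MAP3K4, near background), and no member had groups that did not overlap (4.61% of rows). With CM 0 of 43 passed (0.00552% of rows, 1 gene), 1 had an unadjusted p under 0.05 (MAP2K2, beside 8.09%) and the z-test called 0. The groups did not overlap for MAPK7 (4.17% of rows), a gene below background on all 16 arrays, at -0.12 and, as deposited, 0.20. For the interaction of genotype with CM 0 passed (0% of rows), 0 had an unadjusted p under 0.05 (2.61% of rows) and the z-test called 0. The shares of all rows called by the z-test are not given here.

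The MAP2K genes that MEKK1 feeds gave the following differences, MEKK1-/- minus MEKK1+/+. For MAP2K4 it was -0.15 in untreated cells (95% interval -0.44 to 0.14) and -0.24 with CM (-0.53 to 0.05). For MAP2K7 it was 0.07 (-0.07 to 0.21; -0.05 as deposited) and -0.07 (-0.21 to 0.07; 0.17 as deposited), and for MAP2K1 -0.07 (-0.54 to 0.40) and 0.07 (-0.40 to 0.54; -0.10 with arrays scaled to the same median). MAP2K2 was 0.23 in untreated cells (-0.02 to 0.47; -0.05 as deposited) and 0.29 with CM (0.05 to 0.54, unadjusted p = 0.023 and adjusted p = 0.568 by limma). On single arrays MAP2K2 measured 11.28, 10.98, 10.95 and 10.94 in MEKK1+/+ and 11.51, 11.42, 11.15 and 11.24 in MEKK1-/- cells with CM, so that the groups overlapped.

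Of the MAP3K paralogs nearest to MEKK1, MAP3K3 measured 10.33, 10.24, 10.28 and 10.32 on untreated MEKK1+/+ arrays and 10.47, 10.10, 10.46 and 10.45 on untreated MEKK1-/- arrays. The groups overlapped, with a difference of 0.08 (95% interval -0.15 to 0.31; -0.20 as deposited). With CM it was -0.06 (-0.29 to 0.17; 0.02 as deposited). MAP3K2 differed by 0.03 in both conditions (-0.11 to 0.16), below background on all arrays. MAP3K4 differed by 0.06 (-0.14 to 0.26) and 0.08 (-0.13 to 0.28), near background.

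Below them, MAPK8 was -0.13 in untreated cells (-0.29 to 0.04) and -0.12 with CM (-0.29 to 0.05; 0.08 as deposited), and MAPK9 -0.18 (-0.36 to 0.00) and -0.10 (-0.29 to 0.08; 0.00 as deposited). MAPK3 was -0.13 (-0.35 to 0.08) and 0.13 (-0.08 to 0.34), and MAPK14 -0.20 (-0.50 to 0.10) and -0.29 (-0.59 to 0.01). Of all 43 differences 26 were above 0 in untreated cells and 15 with CM, against 15 and 36 as deposited, and a p that misses the threshold does not show that the genotypes are alike.

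**Figure D4:**
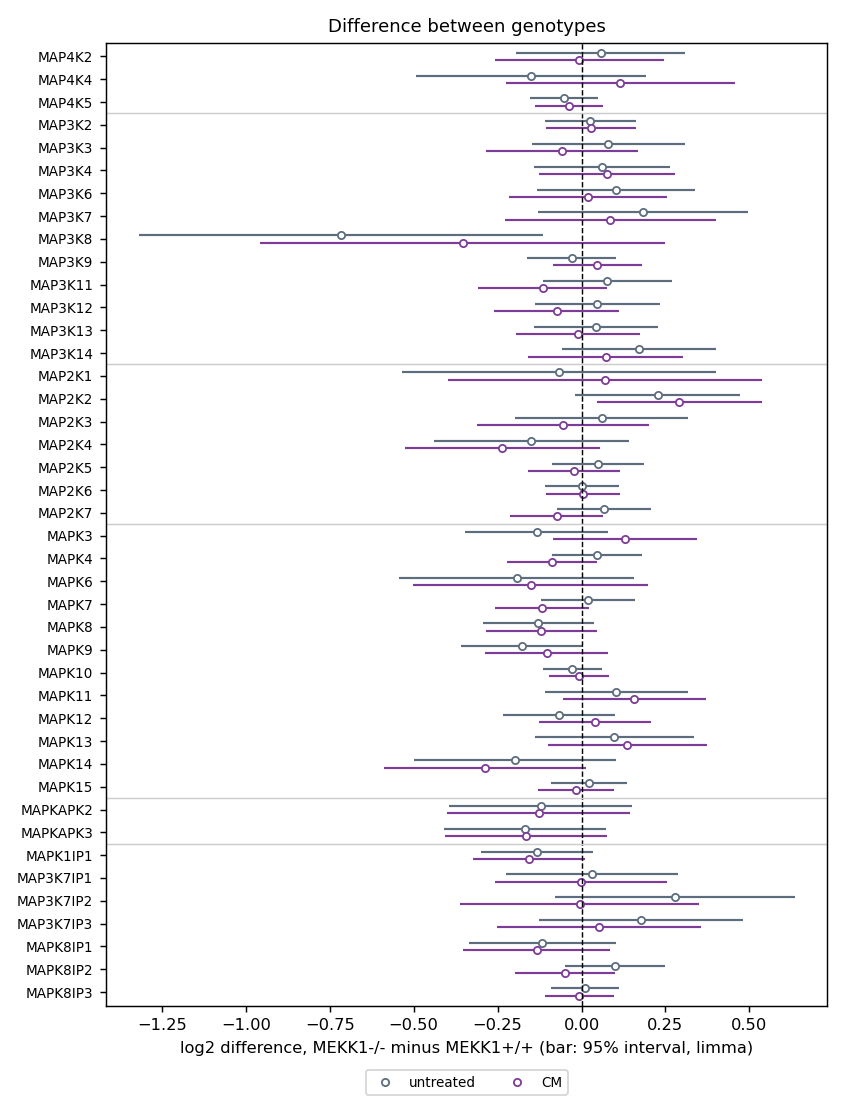
Log2 difference between MEKK1-/- and MEKK1+/+ arrays (x axis) of 42 members in untreated cells (grey) and with CM (purple), with 95% intervals from limma. None is filled, since no adjusted p was under 0.05, and with another scaling 18 of the 43 untreated and 28 of the 43 CM differences change sign. The widest shift is that of MAP3K8, at -0.72 in untreated cells.

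MAP3K8, named here after its values were seen, had the largest difference between genotypes among the members in untreated cells. It measured 8.36, 7.49, 8.04 and 8.73 on MEKK1+/+ arrays and 7.20, 8.08, 7.19 and 7.28 on MEKK1-/- arrays, of which replicates 1 and 3 were below background. Replicate 2 was the lowest MEKK1+/+ array and the highest MEKK1-/- array, and the groups overlapped. The log2 difference was -0.72 (SE 0.28; limma p = 0.0229 before and 0.503 after adjustment; exact permutation p = 0.0857). Under CM the values were 7.91, 8.17, 8.41 and 9.07 in MEKK1+/+ and 7.66, 8.29, 8.19 and 8.00 in MEKK1-/- cells, a difference of -0.35 (95% interval -0.96 to 0.25).

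Macrophage markers moved with MAP3K8 in part, in untreated cells. There the MEKK1+/+ arrays had summed marker intensities of 80727, 31136, 73443 and 57584, and the MEKK1-/- arrays had 34303, 67480, 13190 and 14834, again with replicate 2 at opposite ends. With CM the sums were 75660, 27129, 75286 and 58829 in MEKK1+/+ and 39859, 58670, 14394 and 15397 in MEKK1-/- cells. MAP3K8 followed these sums only in part. Its lowest MEKK1+/+ array with CM was replicate 1, which had the highest sum. In MEKK1-/- cells with CM replicate 2 was the highest array for MAP3K8 and for the sum. The lowest MAP3K8 array there was replicate 1, which had the second highest sum. The median log2 difference of the 15 marker genes, MEKK1-/- minus MEKK1+/+, was -0.82 in untreated cells and -0.84 with CM. MAP3K8 is also used by macrophages, and the part of other cells in its values was not tested. In bulk cultures fewer cells of a type and less RNA per cell cannot be told apart. Without replicate 2 of every group the difference of MAP3K8 in untreated cells was -1.16 (adjusted p = 0.0418 by limma). This was the 1 of 26 alternative limma settings in which it passed, and it was chosen after the marker sums were seen. Replicate 2 was the lowest MEKK1+/+ and the highest MEKK1-/- array for MAP3K8 itself, so leaving it out had to enlarge the difference. Nothing is read from this call.

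**Figure D5:**
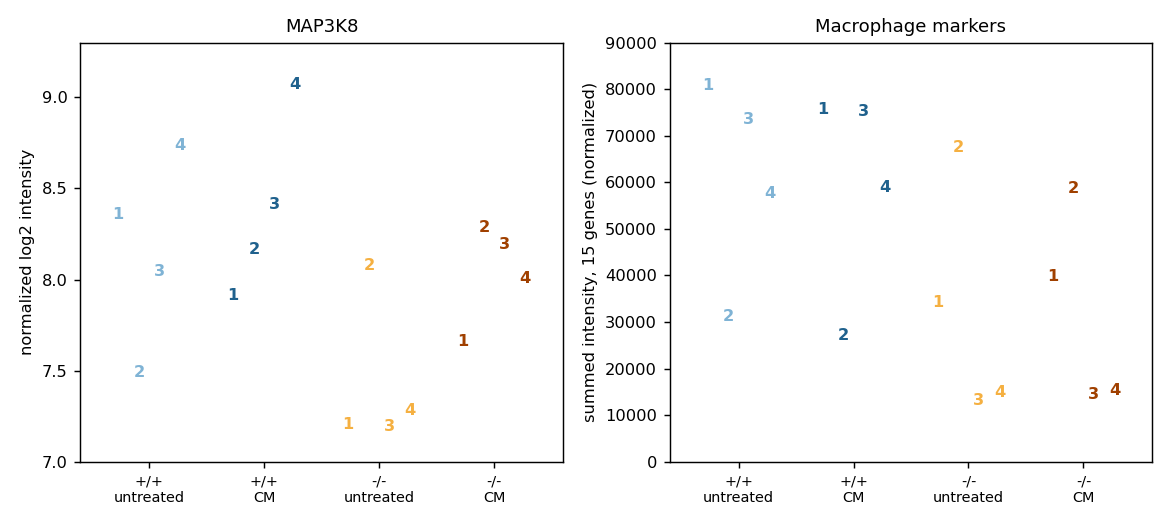
MAP3K8 (left, normalized log2 intensity, axis from 7) and the summed intensity of 15 macrophage markers (right, normalized intensity, axis from 0) in the 16 arrays. Each digit is the replicate number of an array. Replicate 2 is the highest array in both panels in MEKK1-/- cells, untreated and with CM, and the lowest in both in untreated MEKK1+/+ cells. With CM the lowest MAP3K8 array of each genotype is replicate 1, which is not the lowest for the markers.

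The rest of the pathway was read through lists that surround the members. Of the 5 RAF and KSR genes measured, ARAF, an ERK-branch MAP3K, rose in both genotypes, by 0.60 (SE 0.09, adjusted p = 0.00107) in MEKK1+/+ and 0.71 (SE 0.09, adjusted p = 0.000395) in MEKK1-/- cells. The direction held under all scalings tried. ARAF measured 9.66 to 10.08 on untreated and 10.41 to 10.61 on treated MEKK1+/+ arrays, and 9.67 to 9.80 and 10.36 to 10.56 on MEKK1-/- arrays, with no overlap.

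Among the 7 measured kinases that MAP kinases activate, MKNK2, which phosphorylates the cap-binding factor eIF4E, was called in MEKK1+/+ cells (0.39, adjusted p = 0.0123, -0.04 as deposited). Of 7 measured feedback regulators of the ERK branch, IER3 rose by 1.05 (adjusted p = 0.0483) in MEKK1+/+ cells. In MEKK1-/- cells IER3 rose by 1.34 (adjusted p = 0.0146). SPRY2 was called in MEKK1+/+ cells (0.21, adjusted p = 0.0459, -0.04 as deposited) although it lay below background on those arrays. None of the 9 measured MAP kinase phosphatases, 11 transcription factors at the end of the cascade, 14 adaptors and 7 other MAP3K- and MAP4K-level kinases passed in any comparison. No list had a call between genotypes.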

How the data were processed

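Primary mammary fibroblasts were measured on 16 arrays, 4 for each combination of genotype and treatment, with groups and replicate numbers taken from the labels. The authors deposited intensity values, 1 per gene symbol and array for 18132 rows, which the labels call normalized by the core facility. The method, any background correction and how several probes became 1 row are not given in the sources used here. Array medians ran from 114 to 170.1, so log2 values were quantile normalized with limma 3.58.1 in R 4.3.3, with the values as deposited as an alternative. Values per row carry no counts, and depth is not defined for arrays. 0 columns were left unmapped. Arrays of a group correlated at 0.979 to 0.996.

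The 4 groups were fitted together (lmFit, eBayes, 12 residual degrees of freedom). Single genes were also tested by exact permutation of 4 arrays against 4. The z-test of the study's methods was run on z-scores of log10 values over all rows. The steps were tested on simulated data. The members and lists were chosen with earlier results of these data known. Differences are given for the members past the threshold, those whose groups of arrays do not overlap, and fixed kinases near MEKK1. At most 3 called genes of each list were added. MAP3K8 and MAPKAPK2 were added after their values were seen. Other members are named only for their signal over background. Same-numbered untreated and CM arrays correlated, after group means were removed, at 0.505, 0.403, 0.219 and 0.251 in MEKK1-/- cells, all above 0.1, and at -0.04, 0.485, 0.120 and 0.576 in MEKK1+/+ cells. The numbers were taken to pair arrays in MEKK1-/- cells by this check alone. Replicates 3 and 4 are not told apart by it, since untreated replicate 3 correlated more with CM replicate 4 (0.280) and untreated replicate 4 more with CM replicate 3 (0.541) than with their own numbers.

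RefSeq names of GRCm38.p6 matched 40 members by symbol and 3 by an older symbol. Alternatives were median scaling, a filter on low values, a pseudocount of 16, fits of the groups compared, trend and robust eBayes, array weights, replicate blocks and each array left out. Leaving out replicate 2 of every group, and replicate 1 of both MEKK1-/- groups, was chosen after seeing the marker sums. List genes without a row were not analysed here, and genes not reported here by name still enter the counts.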

Additional observations from a re-analysis of the deposited data

Results flagged for a closer look

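Dixon's test was run on the 4 arrays of each group for 22 members, those whose differences are given except MAPKAPK2. It picked 9 of 88 groups in which 1 array stood apart, where chance picks about 1 in 20. Values are normalized log2 intensities. In MEKK1-/- cells with CM, replicate 2 was the lowest array for MAP2K1 at 8.88 (nearest array 9.29), replicate 3 for MAPK11 at 8.33 (nearest 8.44) and replicate 1 for MAPK12 at 7.62 (nearest 7.83). In untreated MEKK1-/- cells, replicate 1 was lowest for MAP3K12 at 7.77 (nearest 8.08), replicate 2 was lowest for MAP3K3 at 10.1 (nearest 10.4) and replicate 4 was lowest for MAPK12 at 7.49 (nearest 7.56), while replicate 2 was the highest for MAP3K8 at 8.08 (nearest 7.28). In MEKK1+/+ cells, replicate 1 with CM was the highest for MAP2K2 at 11.3 (nearest 11.0), and untreated replicate 4 was the lowest for MAPK9 at 9.76 (nearest 9.82).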

How the results depend on the processing

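The count of members past the threshold with CM depended on the settings. Shares of all rows under the alternatives are not given here, so the counts describe the settings and not the cascade. In MEKK1+/+ cells (2 called) it was 1 as deposited (MAP3K6), 1 with only the groups compared, 1 with trend and robust eBayes, 4 with the filter on low values, 5 with array weights, 5 by the z-test and 4 with a replicate block over all arrays, which share only a number there. In MEKK1-/- cells (5 called) it was 0 as deposited, 9 with array weights and 8 by the z-test. Between genotypes in untreated cells it was 1 by the z-test, and 0 with CM and for the interaction under every alternative. Leaving out arrays gave 1 to 3 in MEKK1+/+ cells, 0 to 7 in MEKK1-/- cells, 0 to 1 between untreated genotypes and 0 for both other comparisons. In MEKK1+/+ cells 29 of the 43 CM differences were above 0, 27 with median scaling and 3 as deposited. With at least 1 other scaling, 26 of the 43 CM differences in MEKK1+/+ cells and 0 in MEKK1-/- cells turned sign. So did 18 (untreated) and 28 (CM) of the genotype differences. Among members named because their groups did not overlap, these were MAP3K11 (-0.11 as deposited) and MAPK1IP1 (-0.15) for CM in MEKK1+/+ cells and MAPK7 (0.20) between genotypes with CM, and the report gives others beside their values. The cause of these changes was not tested. MAP4K2 in MEKK1+/+ cells kept its call in 25 of 27 alternative limma settings (lost as deposited and without replicate 2 of every group) and MAPK3 in MEKK1-/- cells in 25 of 27, the exceptions for MAPK3 being as deposited and without untreated replicate 4 (adjusted p = 0.0584). In MEKK1-/- cells the calls of MAP4K2, MAP3K6 and MAPK11 were each lost in 9 of 27 and that of MAP4K4 in 11 of 27, including a replicate block over all arrays (adjusted p = 0.0547). The number of members above background on every array was 27 to 30 with other levels and 29 with each array left out.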
